A study of Mus musculus with 24 samples.

Results

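The genes described here encode the proteasome: every gene whose symbol begins with Psma, Psmb, Psmc, Psmd, Psme or Psmf followed by a number, together with the assembly chaperones Psmg1 to Psmg4. They were found by symbol alone, and 50 of the 24411 genes listed in the deposited tables qualified. By role, 8 form the alpha ring of the 20S core, 7 the constitutive beta ring, 5 belong to the immunoproteasome (Psmb8, Psmb9, Psmb10, Psme1 and Psme2), 6 are ATPases of the 19S base and 11 are other 19S subunits. A further 7 are assembly chaperones, 2 are other activators (Psme3 and Psme4) and 1 is the inhibitor Psmf1. The remaining 3 are Psmb11, a beta subunit of the thymus, Psme2b, a near copy of Psme2 that can share its reads, and Psmc3ip, which carries the prefix but encodes a protein of meiotic recombination and no subunit.

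RNA was sequenced from 2 experiments on male C57/Bl6 mice aged 20 months, each mouse receiving 8 intravenous injections of 100 μl over 24 days. Whole hippocampi came from 5 mice given saline, 6 given the young blood plasma preparation and 6 given the young platelet fraction, which was collected from such preparations by centrifugation. Microglia, the resident macrophages of the brain, came from the hippocampi of mice given saline (3 libraries) or recombinant mouse platelet factor 4, PF4, at 5 μg/ml (4 libraries), after dissociation, removal of myelin and capture on CD11b beads. The comparisons ask whether each treatment changed the proteasome genes relative to saline. All groups were aged, so no young hippocampus serves as a reference here.

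The proteasome degrades proteins tagged with ubiquitin. Its core is a barrel of alpha and beta rings with the proteolytic sites inside, and the 19S particle at either end binds, unfolds and feeds in the substrate. In immune cells, and in other cells under interferon, the catalytic subunits encoded by Psmb5, Psmb6 and Psmb7 are exchanged for those encoded by Psmb8, Psmb9 and Psmb10, and Psme1 with Psme2 forms a cap, a form known for making peptides for MHC class I molecules.

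Summed over the listed genes, hippocampal libraries held 6140510 to 10522699 reads and microglial libraries 19855188 to 36342162. All 7 microglial marker genes were read in each microglial library, with a summed normalized count of 682781 to 1004230, whereas 5 neuronal markers summed to between 0 and 413. Other cells were also present: 4 astrocyte markers summed to 5372 to 14700 in these libraries and 3 border macrophage markers to 250 to 6913. Some features of the libraries touch the results. Microglial libraries saline 2, PF4 2 and PF4 4 held choroid plexus transcripts at 204912 to 524761 summed normalized counts, against 668 to 996 in the other libraries. The microglial libraries were also patchy: of 9685 genes above 100 normalized counts in at least 3 of them, 1631 were at 0 in at least 1 library, against 5 of 9411 such genes in the hippocampus. Hippocampi 7146, 7152, 7147, 7150 and 7148 stood apart from the other 12 on the first principal component, which held 25.2% of the variance. Normalized counts are reads per gene after scaling of each library by its size factor.

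Sequences before the RefSeq starts of a catalytic pair are shown because the pair separates the 2 tissues. The 250 bases before the RefSeq start of Psmb8, of its neighbour Psmb9 and of the constitutive Psmb5 are given 5′ to 3′ on the strand of each gene, from GRCm38.p6. Capitals in Psmb8 mark a match to TTCCNNGAA, the letters of a gamma-activated site, an element of genes that respond to interferon gamma. Capitals in Psmb5 mark a match to TGACNNNGC, the core of an antioxidant response element.
Psmb8, chr17:34197945-34198194, plus strand: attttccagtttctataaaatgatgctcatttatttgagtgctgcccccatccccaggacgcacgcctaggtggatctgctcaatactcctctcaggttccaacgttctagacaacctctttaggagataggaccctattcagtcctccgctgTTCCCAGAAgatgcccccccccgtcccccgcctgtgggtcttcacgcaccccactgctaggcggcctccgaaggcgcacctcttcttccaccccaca
Psmb9, chr17:34187331-34187580, minus strand: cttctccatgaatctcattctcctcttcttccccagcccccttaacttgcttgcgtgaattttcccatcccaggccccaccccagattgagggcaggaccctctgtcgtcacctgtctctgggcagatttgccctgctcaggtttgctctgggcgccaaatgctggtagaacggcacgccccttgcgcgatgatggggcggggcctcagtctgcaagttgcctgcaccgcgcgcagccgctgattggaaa
Psmb5, chr14:54617996-54618245, minus strand: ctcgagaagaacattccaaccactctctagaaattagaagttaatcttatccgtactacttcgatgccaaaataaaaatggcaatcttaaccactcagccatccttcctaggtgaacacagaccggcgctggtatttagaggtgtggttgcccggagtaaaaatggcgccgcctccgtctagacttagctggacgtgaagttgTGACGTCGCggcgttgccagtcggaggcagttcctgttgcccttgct

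The Psmb8 match begins 97 bases before the RefSeq start of that gene and the Psmb5 match 47 bases before its own. Searched on both strands in windows from 250 bases before to 50 after the start, TTCCNNGAA was in 4.81% of 32851 RefSeq promoters and, among the 42 members with a promoter in the table, in those of Psmb8 and Psmd2. TGACNNNGC was in 12.4% of all promoters and in those of 6 members, Psmb5, Psmb6, Psmc6, Psmd9, Psmd12 and Psme4. The letters searched for an interferon-stimulated response element, a motif bound by interferon-activated factors, were found in 3.44% of all promoters and in those of 5 members, of which Psme1 was the only immunoproteasome gene. A match describes letters in a window and not a bound site. Psmb9 and Tap1, which encodes a subunit of the peptide transporter that feeds MHC class I, start on opposite strands, and 275 bases of their windows coincide. Psmb9, Tap1 and Psmb8 lie in a row on chromosome 17, at 34181987-34187764, 34187553-34197225 and 34197721-34201454. By these spans, taken from GENCODE, the 250 bases shown for Psmb8 and Psmb9 lie inside the genes, after the GENCODE starts. The RefSeq and GENCODE starts of these genes differ, and which of them the RNA here used was not tested.

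Levels were compared between genes as RPKM, that is, reads per kilobase of the principal transcript scaled to the counted reads of the library. Within each tissue the subunits did not stand at one level. In saline-treated hippocampi the highest mean was that of Psmb5 at 319 ± 22.1 RPKM (SD, n = 5), followed by Psmb6 at 296 ± 18.1 and the ATPase Psmc5 at 270 ± 14.4. The non-ATPase subunit Psmd3 was at 61.6 ± 32.0 and the inhibitor Psmf1 at 18.0 ± 1.00. Psmb5 and Psmb6 are neighbours in that order whose ranges over the mice overlapped, at 292 to 352 and 275 to 310. Psmb5 was the higher within each mouse, and the difference was not tested. At the low end stood the activators Psme3, which caps the 20S core in the nucleus, at 6.14 ± 0.619, and Psme4 at 1.95 ± 0.365.

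The immunoproteasome genes took another place in the order in each tissue. Psmb8 was at 8.16 ± 0.930 RPKM in saline-treated hippocampi, with single mice from 7.10 to 9.46, and at 169 ± 31.8 in saline-treated microglia (n = 3), with single libraries from 141 to 204. Psmb9 was at 2.24 ± 0.657 and 43.4 ± 9.49, and Psmb10 at 33.1 ± 2.62 and 125 ± 65.6. The cap genes Psme1 and Psme2 were at 45.1 ± 5.19 and 36.1 ± 3.37 in the hippocampus and at 118 ± 21.5 and 109 ± 37.2 in microglia. No library of 1 tissue reached the range of the other for any of these 5 genes. The constitutive beta ring showed no such separation as a group. Psmb5 was at 102 ± 11.9 RPKM in microglia, below its hippocampal level, and Psmb1, Psmb3 and Psmb7 also had lower means there. Psmb4 was at 126 ± 26.2 against 129 ± 8.83 in the hippocampus, and Psmb2 at 165 ± 47.9 against 159 ± 11.3. Psmb6 had the higher mean in microglia, 335 ± 154 against 296 ± 18.1, with overlapping ranges (221 to 510 and 275 to 310). The tissues came from separate experiments with separate size factors, so these levels are set side by side and were not tested. In tissue RNA, fewer cells of a type and less RNA per cell cannot be told apart.

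**Figure D1:**
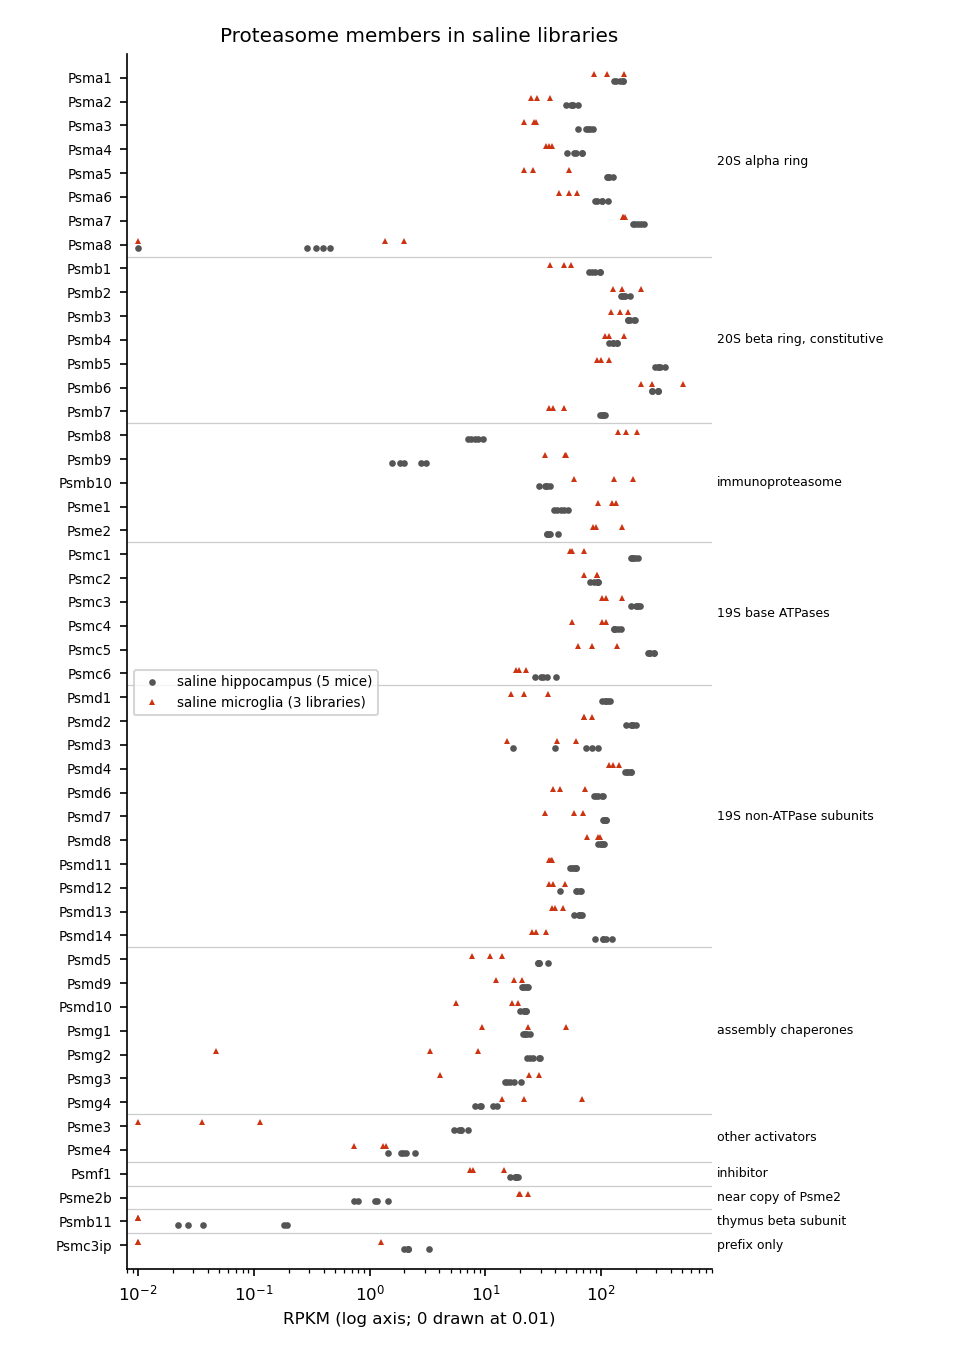
Level of each of the 50 proteasome members (rows, grouped by role) in RPKM on a log axis (values of 0 drawn at 0.01), with 1 point per library, in the 5 saline-treated hippocampi (grey circles) and the 3 saline-treated microglial libraries (red triangles). The 5 immunoproteasome genes lie to the right in microglia, most of the 19S subunits lie to the left, and Psme3 lies between 0 and 0.114 RPKM in microglia against 5.38 to 7.10 in the hippocampus.

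As a share of all reads on members, the 5 immunoproteasome genes held 15.1% to 18.6% in the saline-treated microglial libraries and 1.97% to 2.40% in the saline-treated hippocampi. In RPM, reads scaled to a common library total with no correction for length, the members together held 4112 to 4650 RPM in those microglia and 6258 to 6709 in those hippocampi. The microglial libraries held less proteasome RNA by this measure, and more of the immunoproteasome, 702 to 764 RPM against 131 to 161.

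The exchange of each catalytic subunit was followed as the ratio of reads per length within a library, which does not depend on the size factor. Psmb8/Psmb5 was 1.42, 1.42 and 2.20 in saline-treated microglia and 0.0202 to 0.0304 in the 5 saline-treated hippocampi. Psmb10/Psmb7 was 1.21 to 4.90 in saline-treated microglia and 0.265 to 0.346 in saline-treated hippocampi. Psmb9/Psmb6 stayed below 1 in both, at 0.0635 to 0.222 and 0.00558 to 0.0112. Each of the 3 ratios was higher in every microglial library than in every hippocampus, as the plot of the ratios shows.

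**Figure D2:**
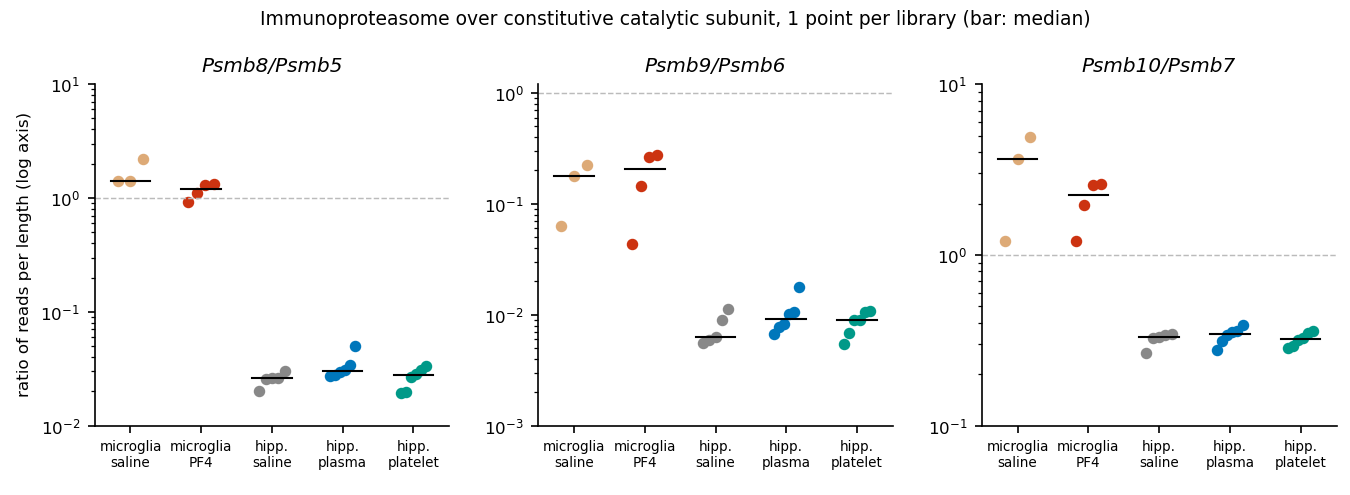
Ratio of reads per length of each immunoproteasome subunit to the constitutive subunit whose place it takes, on log axes, with 1 point per library, a bar at each group's median and a dashed line at 1. Psmb8/Psmb5 lies between 0.927 and 2.20 in microglia and between 0.0194 and 0.0497 in hippocampi, and young plasma mouse 7150 is the highest hippocampus for Psmb8/Psmb5 and Psmb9/Psmb6.

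In microglia, Psme3 was the member called after PF4. It lies at chr11:101316213-101323537 on the plus strand. Its normalized counts were 0, 2.5 and 7.9 in the saline libraries 2, 3 and 4, which is 0, 2 and 11 reads, and 511, 102, 131 and 211 in the PF4 libraries 1 to 4. The groups did not overlap. Psme3 passed the filter of 10 normalized counts in 3 libraries only through the PF4 libraries, where it is high, so among tested genes it had to differ, and with no filter it was not called. The count of 0 in saline library 2 allows up to 3.72 normalized counts, by counting error only. The fitted log2 fold change was 5.97 ± 1.77 (SE), at an unadjusted P of 0.00745 and an adjusted p of 0.982 in limma. With so few reads in saline the fitted value depends on the pseudocount, so the summed reads are also given: 1161 of 115080350 in PF4 against 13 of 77241642 in saline, a depth-scaled ratio of 59.9 with a 95% exact interval of 34.9 to 113 for counting error only. Its size depended on single libraries. Leaving out 1 library at a time gave ratios from 34.8 without PF4 library 1, which held 672 of the reads, to 206 without saline library 4, which held 11.

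Psme3 was called at the study's threshold for microglia, an unadjusted P of 0.01, which 0.389% of the 11320 genes tested passed. Of 49 members tested, 1 passed, and none passed an adjusted p of 0.05, as was so for every gene tested (0%) in limma. At an unadjusted P of 0.05, 2 members passed in limma (3.45% of all genes tested), 3 in edgeR (2.27%) and 4 in DESeq2 (3.74%). After adjustment DESeq2 called 41 genes (0.362%), Psme3 among them (adjusted p = 0.00626). The call of Psme3 was lost on leaving out saline library 2 or 3 or any 1 of the 4 PF4 libraries, in edgeR and with no filter on low values. It was kept without saline library 4. The fitted log2 fold change ranged from 5.15 to 6.72 and the unadjusted limma P from 0.00800 to 0.0201 over the 7 fits that each left out 1 library. Of the 48 members above 100 normalized counts in at least 3 microglial libraries, 4 fell under 10 in at least 1 library, namely Psme3, Psma8, Psmg1 and Psmg2, and the part of this patchiness in the Psme3 difference was not tested. The libraries high in choroid plexus transcripts lay in both groups. In them Psme3 was at 0 in saline library 2 and at 102 and 211 in PF4 libraries 2 and 4. In the others it was at 2.5 and 7.9 in saline and at 511 and 131 in PF4. The part of choroid plexus transcripts in the Psme3 difference was not tested. In the hippocampus Psme3 was near 1 level, between 106 and 138 normalized counts in saline mice.

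Psmd1, the largest scaffold subunit of the 19S base, came next. It was at 1274, 1748 and 2826 normalized counts in saline microglia and at 3929, 3373, 2814 and 4962 in PF4 microglia. The lowest PF4 library and the highest saline library lay side by side, so the groups overlapped. Its log2 fold change was 1.00 ± 0.33 at an unadjusted P of 0.0127 in limma, past 0.05 and not past the 0.01 threshold. Without saline library 4 it passed (log2 fold change 1.31, at an unadjusted limma P of 0.00340), and it also passed with scaling to library totals (1.03). Of the 7 fits that each left out 1 library, no other passed, and the log2 fold change was lowest without saline library 2 (0.73). Without the 3 libraries highest in Ttr, Psmd1 was at 0.58 and did not pass. Its lowest value, 1274, and its highest, 4962, came from saline library 2 and PF4 library 4, both high in choroid plexus transcripts.

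The members described next did not pass, each with an adjusted p of 0.982 or more in limma. Psma5, an alpha ring subunit, was at 655, 828 and 1701 in saline and at 2165, 1571, 1360 and 1629 in PF4, a log2 fold change of 0.77 ± 0.40. Psmb4, a beta ring subunit without a proteolytic site, was at 4548, 3287 and 3551 normalized counts in saline and at 2206, 2741, 2441 and 3166 in PF4. Psma6, an alpha ring subunit, was at 1580, 1426 and 1171 in saline and at 887, 899, 922 and 942 in PF4. For both genes every PF4 library lay below every saline library, with log2 fold changes of -0.52 ± 0.24 and -0.60 ± 0.33 that did not pass the test. Besides Psme3, which entered the test through its PF4 libraries alone, these 2 were the members whose groups did not overlap, where 4.62% of all genes tested had such groups. The ATPase Psmc2 was at 4083, 4265 and 3302 in saline and between 1639 and 3404 in PF4, a log2 fold change of -0.57 ± 0.30.

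**Figure D3:**
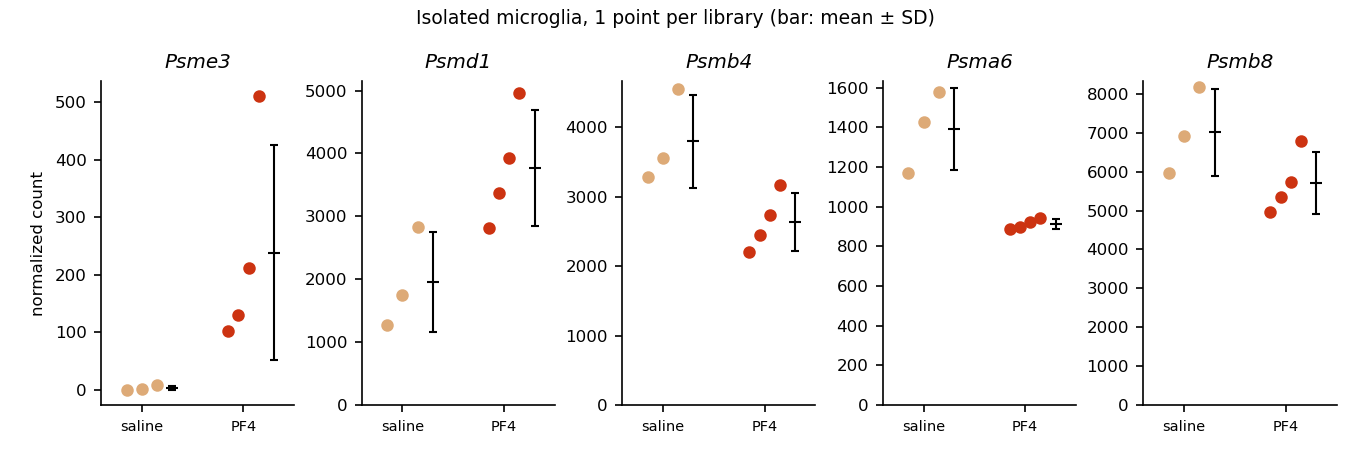
Normalized counts of 5 members in isolated microglia after saline (3 libraries) or PF4 (4 libraries), with 1 point per library and a bar for the mean ± SD. Psme3 lies at 0 to 7.9 in saline and 102 to 511 in PF4, Psmd1 overlaps between the groups at 2814 and 2826, and Psmb4 and Psma6 lie lower in every PF4 library.

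Of the 5 immunoproteasome genes, none passed the test after PF4. Psmb8 was at 8171, 5955 and 6911 normalized counts in saline and at 6802, 4968, 5356 and 5723 in PF4, a log2 fold change of -0.29 ± 0.20. Psmb9 ranged from 1080 to 1727 in saline and from 516 to 2528 in PF4 (log2 fold change -0.09 ± 0.54), and Psmb10 from 1879 to 6446 in saline and from 2074 to 4100 in PF4 (-0.39 ± 0.41). Psme1 and Psme2 were at log2 fold changes of 0.23 ± 0.29 and 0.10 ± 0.30. The Psmb8/Psmb5 ratio was 1.42 or more in each saline library and 0.927 to 1.34 in the PF4 libraries. Its mean log2 ratio was lower in PF4 by 0.51 ± 0.24 (SE), and the two-sided exact permutation p was 0.0571, which is the smallest that 3 libraries against 4 allow, and 0.257 after adjustment over the 9 ratio tests. For Psmb9/Psmb6 and Psmb10/Psmb7 the exact permutation p was 0.914 and 0.457.

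Some members swung widely between libraries of the same group. Psmg1, a chaperone that pairs with Psmg2 to assemble the alpha ring, was at 1287, 253 and 634 normalized counts in saline and at 615, 3.9, 95.6 and 888 in PF4. Psmg2 was at 1.2, 91.3 and 237 in saline and between 156 and 259 in PF4. Their log2 fold changes were -2.23 ± 1.70 and 2.48 ± 1.75, opposite in sign and past no threshold. Psma8, the alpha subunit of the testis, was read at 0 to 87.6 in saline and 86.2 to 302 in PF4, and its log2 fold change was 3.61 ± 1.89. Psmb11 was at 0 in all 7 microglial libraries, which allows up to 3.72 normalized counts in a library. It reached at most 6.64 normalized counts in the hippocampus. Psmb11 missed the filter in every comparison and was tested only in the hippocampal fits with no filter.

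In the hippocampus after the young blood plasma preparation, no member was called. Of 47 members tested, 0 passed an unadjusted P of 0.05 in limma, where 3.35% of 13594 genes did, and 0 passed in edgeR or DESeq2. The median log2 fold change over the members was 0.02, against -0.01 over all genes tested. No member had groups that did not overlap, beside 0.191% of all genes.

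Psmb8 and Psmb9 had the smallest P of the members with higher means. Psmb8 was at 85.8, 88.6, 101, 102 and 111 normalized counts in the saline mice and at 97.0, 101, 105, 112, 127 and 210 in the plasma mice. The value of 210 belonged to mouse 7150, and of the other 5 plasma mice 3 lay inside the saline range and 2 above it. The log2 fold change was 0.30 ± 0.19, and 0.14 without that mouse. It was 0.06 without the 5 hippocampi apart on the first component, which include that mouse. Psmb9 ranged from 15.2 to 31.7 with a median of 19.5 in saline and from 20.0 to 55 with a median of 29.3 after plasma, again with mouse 7150 highest, and its log2 fold change was 0.42 ± 0.29.

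Of the 5 immunoproteasome genes, mouse 7150 was the highest plasma mouse for 3 (Psmb8, Psmb9 and Psme2) and the lowest for Psme1, at 336 normalized counts against 350 to 444 in the others. Of 11 interferon and MHC class I partners tested, it was highest for 5, B2m and Tap1 among them, and lowest for Erap1, which trims peptides for MHC class I, at 50 against 70.6 to 105. Its normalized counts were 1356 for B2m, the light chain of MHC class I, where the other plasma mice ranged from 569 to 817. Tap1 was at 126 in it and at 76.3 to 115 in the others. Constitutive Psmb5 was at 2333 in mouse 7150 and at 1816 to 2100 in the others. The summed count of the 7 microglial markers was 6937 in mouse 7150, 4784 to 5738 in the other plasma mice and 5508 to 6691 in saline mice, and it belonged to the 5 hippocampi apart on the first component. The part of either in its Psmb8 and Psmb9 values was not tested. Psmb9 shares 212 of 3660 exonic bases with Tap1 on the opposite strand, Psmb8 shares 498 of 3381 with Gm20496 and Psmb7 shares 405 of 3421 with Nek6. Reads there can be told apart only if strand was used in counting, which is not given in the sources used here, and this touches all 3 ratios.

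The Psmb8/Psmb5 ratio of reads per length was 0.0202 to 0.0304 in saline mice and 0.0271 to 0.0497 in plasma mice. The mean log2 ratio was higher after plasma by 0.35 ± 0.16 (SE), with a two-sided exact permutation p of 0.0346 and of 0.257 after adjustment over the 9 tests, which does not pass. Without mouse 7150 the difference was 0.22 (exact permutation p = 0.0635). Psmb9/Psmb6 and Psmb10/Psmb7 differed by 0.40 ± 0.28 (exact permutation p = 0.195) and 0.07 ± 0.10 (exact permutation p = 0.485). Of the other immunoproteasome genes after plasma, Psmb10 had a log2 fold change of 0.04 ± 0.10, Psme1 of 0.06 ± 0.10 and Psme2 of -0.0066 ± 0.087.

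None of the remaining members passed after plasma. Psmd3, a 19S subunit that spread widely within each group, had a log2 fold change of 0.28 ± 0.45, from 274 to 1539 normalized counts in saline and 465 to 1446 after plasma. Psmg1 had a log2 fold change of 0.12 ± 0.10 (162 to 185 normalized counts in saline and 150 to 210 after plasma). Psmd10, a chaperone of the 19S base also known as gankyrin, had -0.14 ± 0.10, with 207 to 235 in saline and 181 to 244 after plasma. Psmg2 had -0.16 ± 0.11 and Psmd1 -0.09 ± 0.07. The groups overlapped for each of these genes.

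**Figure D4:**
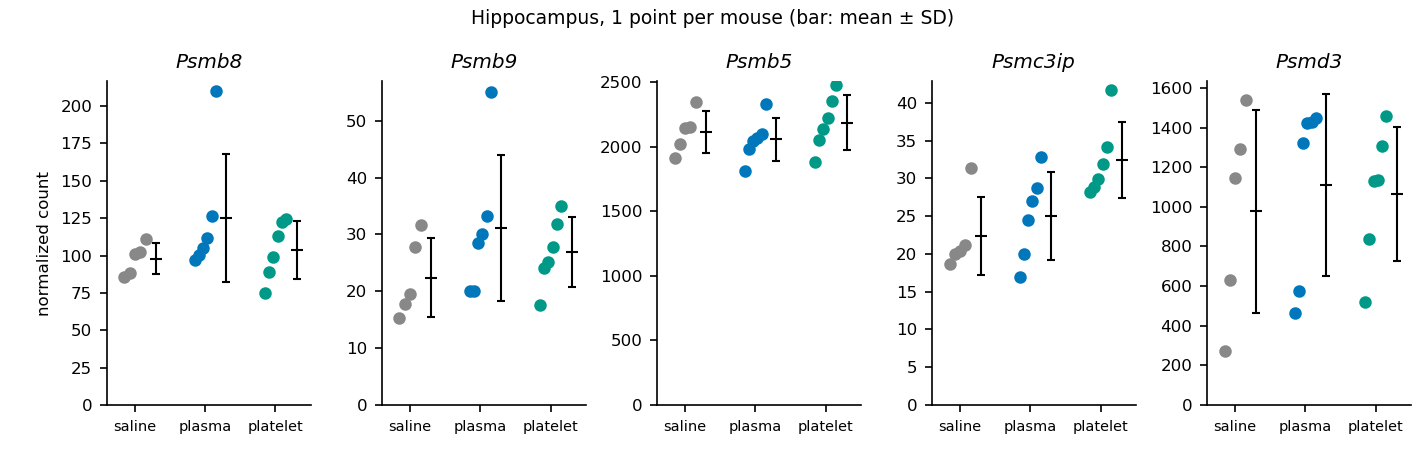
Normalized counts of 5 members in hippocampi after saline (5 mice), young plasma (6) or the young platelet fraction (6), with 1 point per mouse and a bar for the mean ± SD, each treated group on the scale of its own table. Mouse 7150 stands alone at 210 for Psmb8 and 55 for Psmb9, Psmc3ip is at 28.2 or more in every platelet mouse, and Psmd3 spreads from 274 to 1539 among the saline mice.

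After the young platelet fraction, 1 of 47 members tested was called, where 3.87% of 13603 genes passed an unadjusted P of 0.05 in limma. It was Psmc3ip, which is no proteasome subunit. Its normalized counts were 18.8 to 31.6 with a median of 20.4 in saline and 28.2 to 41.6 with a median of 30.9 after the platelet fraction. One saline mouse, 7596, lay inside the platelet range and the other 4 below it. The log2 fold change was 0.52 ± 0.19 at an unadjusted P of 0.0177 and an adjusted p of 0.998 in limma. Psmc3ip rose by that test in each fit that left out a single mouse, at log2 fold changes from 0.45 to 0.65, and not without the 5 mice apart on the first component (0.44). Of its 1818 exonic bases, 385 overlap Mlx on the other strand.

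No subunit, activator or chaperone of the proteasome passed after the platelet fraction. Psmg4, a chaperone of the alpha ring, had a log2 fold change of 0.40 ± 0.22, with 32.4 to 51.4 normalized counts in saline and 31.4 to 69.7 after the platelet fraction. Psme1 had 0.14 ± 0.11, the ATPase Psmc1 -0.09 ± 0.06, Psmd1 -0.08 ± 0.07 and Psme3 -0.16 ± 0.13. Without platelet mouse 7145, Psmg4 (log2 fold change 0.55) and the beta subunit Psmb6 (0.17) passed as well. No member's groups were free of overlap, beside 0.257% of all genes. The immunoproteasome genes Psmb8, Psmb9, Psmb10 and Psme2 had log2 fold changes of 0.06 ± 0.15, 0.27 ± 0.25, 0.07 ± 0.11 and 0.13 ± 0.12, and the 3 ratios gave exact permutation p of 0.476 to 0.978.

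By role, the constitutive beta ring had median log2 fold changes of 0.03 after PF4, -0.0025 after plasma and 0.07 after the platelet fraction. Its 7 genes ranged from -0.52 to 0.24 after PF4, from -0.05 to 0.04 after plasma and from 0.01 to 0.09 after the platelet fraction. The 6 ATPases were at medians of 0.10, 0.02 and -0.02, and the 11 non-ATPase subunits at 0.01, 0.02 and 0.02. The 5 immunoproteasome genes were at -0.09, 0.06 and 0.13. Over all members tested, 29 of 49, 26 of 47 and 33 of 47 had higher means, with medians of 0.05, 0.02 and 0.04, against medians over all genes of 0.03, -0.01 and 0.0021. The plasma and platelet comparisons share their saline mice. In hippocampi the members other than Psmb8, Psmb9, Psmd3, Psmg4 and Psmc3ip had log2 fold changes from -0.16 to 0.14 in both comparisons, as the plot of differences shows.

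**Figure D5:**
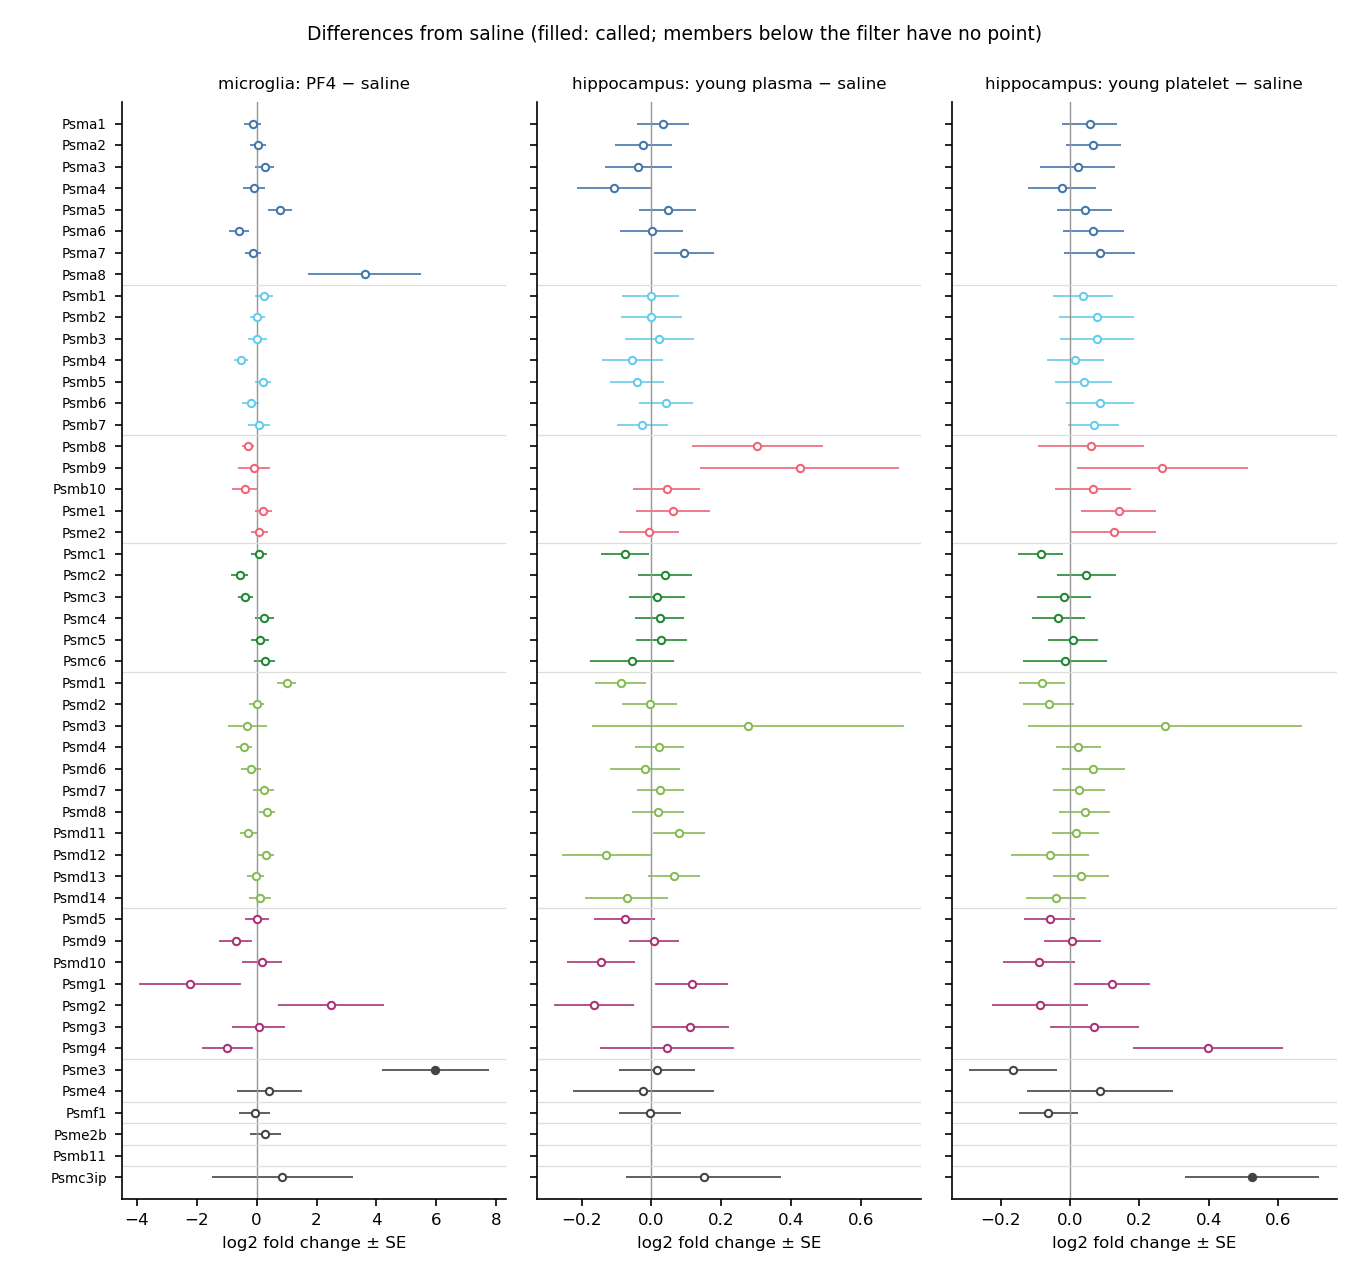
Log2 fold change from saline with its SE for each member (rows, grouped by role and coloured for the larger groups) after PF4 in microglia, and after young plasma and the young platelet fraction in the hippocampus, with separate horizontal scales. Filled points passed the threshold, namely Psme3 at 5.97 in microglia and Psmc3ip at 0.52 after the platelet fraction.

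Set directly against each other, the young platelet fraction and young plasma differed in 0 of 47 members in limma, where 1.88% of 13547 genes passed an unadjusted P of 0.05, and also in 0 members in edgeR or DESeq2. No member had groups free of overlap, beside 0.0886% of all genes. Psmb8 was lower after the platelet fraction by a log2 value of -0.24 ± 0.19 and Psmc3ip higher by 0.37 ± 0.19. The 7 constitutive beta subunits differed by 0.04 to 0.09.

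Partners of the proteasome were followed in 2 lists. List A held 30 measured genes for ubiquitin, shuttle factors, deubiquitinases and the regulators Nfe2l1 and Nfe2l2, and 0 of 30 passed after PF4 (0.389% of all genes tested), 0 of 30 after plasma (3.35%) and 1 of 30 after the platelet fraction (3.87%), no more than the share of all genes. That gene was Ddi2, a protease that activates the transcription factor Nfe2l1, at a log2 fold change of 0.44 ± 0.18, at an unadjusted P of 0.0288 and an adjusted p of 0.998 in limma, with 68.6 to 120 normalized counts in saline and 92.6 to 146 after the platelet fraction. Between the treatments, Usp14, a deubiquitinase of the 19S particle, was higher after the platelet fraction (0.20 ± 0.09), past the unadjusted threshold alone. List B held interferon and MHC class I partners of the immunoproteasome, and 0 of 12 measured passed after PF4 and 0 of 11 after either treatment of the hippocampus. Its median log2 fold change was -0.19 after PF4, 0.11 after plasma and 0.08 after the platelet fraction.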

How the data were processed

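RNA-seq of whole hippocampus and of isolated hippocampal microglia was deposited in 3 tables, each of saline against 1 treatment. The authors divided the counts of each library by a size factor, so the deposited values are a signal of normalized counts, and both hippocampal tables hold the same 5 saline mice. The submitters' processing notes name STAR, RSEM, DESeq2 and the mm10 build, with no versions. The authors' fold-change and P columns compare saline with treatment and were not used. The labels name a strand-specific kit and the study's methods a Smart-Seq2 protocol, and the strand setting of the counting is not given in the sources used here.

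Dividing by the smallest value above 0 of each library, taken as 1 read, gave whole reads for 100% of values within 0.01 of a read. Members and lists were chosen with earlier results of these data known. Groups came from the labels. A gene entered the fit if its normalized count reached 10 in 3 microglial libraries, in 5 hippocampi for a comparison with saline, or in 6 between treatments. Genes were fitted on log2(normalized count + 1) by limma 3.58.1 in R 4.3.3 with a variance trend and Benjamini-Hochberg adjustment over all genes tested. A fold change on this scale understates the change of low genes. The thresholds were those of the study, an unadjusted P of 0.01 in microglia and 0.05 in hippocampus. Between treatments the tables were put on 1 scale by their shared saline mice (factor 0.995). Each ratio was tested over libraries by exact permutation, two-sided. Named with values were the immunoproteasome genes, Psmb5, Psmb6, Psmb7, Psme3, Psmd1, members called, and the 3 members per direction with the smallest P in each comparison with saline. Psmg1, Psmg2, Psma8 and Psmd3 were named where they fell outside this rule after their values were seen.

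Positions and lengths came from GENCODE vM21 (GRCm38) and promoters from RefSeq (GRCm38.p6). Alternatives were other pseudocounts (0.5 and 5), filters (none, and 50), scalings, count models fitted to the recovered reads (DESeq2 1.42.0, edgeR 4.0.16), a replicate block, and leaving out each library. Leaving out the 3 microglial libraries highest in Ttr, leaving out the 5 hippocampi apart on the first component, and fitting microglial libraries 2 to 4 alone were chosen after seeing the data. The limma fits against saline were also run on simulated counts, in which no gene was made to drop out of single libraries. Those runs do not speak to the patchy microglial genes. Per the study, each microglial library came from a separate mouse. Intervals and limits cover counting error only, since PCR reads without molecular identifiers are not independent molecules.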

Additional observations from a re-analysis of the deposited data

Results flagged for a closer look

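Of 92 groups of 4 to 10 libraries examined, 8 held a library far from the others of its group, and chance gives about 1 in 20. Young plasma mouse 7150 had 4 of them. Its Psmb8 was at 210 normalized counts, where the next plasma mouse was at 127, and its Psme2 was at 274, next to 258. Its Psmb8/Psmb5 ratio per length was 0.0497, next to 0.0342, and its Psmb9/Psmb6 ratio 0.0177, next to 0.0105. Saline mouse 7596 was high for Psme2, at 299.7 normalized counts next to 253, and for Psmc3ip, at 31.4 next to 21.1. Saline mouse 7143 was low for Psmd10, at 207 next to 227, and saline mouse 7146 was low for Psmb10/Psmb7, at 0.265 next to 0.325.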

How the results depend on the processing

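The single member called in microglia fell to 0 members with no filter, in edgeR, under the replicate block, with libraries 2 to 4 of each group and no block, and without the 3 libraries highest in Ttr, where Psme3 missed the filter and was not tested. Scaling to library totals gave 2 members, and leaving out 1 library gave 0 to 2. Deviations of each microglial library from its group mean were correlated between the groups. Same-numbered libraries gave 0.136, 0.0586 and 0.0321, inside the range of -0.200 to 0.197 for libraries of different number. The numbers were therefore not taken to pair the libraries. After plasma, 0 members became 0 to 1 on leaving out 1 mouse (Psmd12 at -0.24 without saline mouse 7143). After the platelet fraction, 1 became 0 with a filter of 50 and 0 without the 5 hippocampi apart on the first component, and 1 to 3 on leaving out 1 mouse. Between treatments 0 became 0 to 2. Leaving out 1 library moved the log2 ratio difference of Psmb9/Psmb6 after PF4 from -0.44 to 0.69, of Psmb8/Psmb5 after plasma from 0.22 to 0.41 and after the platelet fraction from -0.063 to 0.10, and of Psmb10/Psmb7 after the platelet fraction from -0.069 to 0.032.

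Signs reversed among small values, with causes not tested. After PF4, Psmb9 was at 0.12 in edgeR and 0.12 in DESeq2, and without the libraries highest in Ttr Psmb9 was at 0.067 and Psmb6 at 0.086. After plasma, Psme2 was at 0.0027 with TMM and 0.0047 with library totals, and without the hippocampi apart on the first component Psme1 was at -0.0049 and Psmb6 at -0.018. After the platelet fraction Psmb10 was then at -0.025. Leaving out 1 library, PF4 values ranged from -0.37 to 0.39 for Psmb9, -0.056 to 0.34 for Psme2, -0.43 to 0.13 for Psmb6 and -0.093 to 0.25 for Psmb7. Plasma values ranged from -0.0084 to 0.080 for Psmb10, -0.032 to 0.051 for Psme2, -0.049 to 0.0072 for Psmb7 and -0.028 to 0.065 for Psme3.

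Over all genes, the 44 called after PF4 became 179 in DESeq2, 9 without the libraries highest in Ttr and 22 to 123 on leaving out 1 library. The 456 after plasma became 300 without the hippocampi apart on the first component and 297 to 617 on leaving out 1 mouse, the 527 after the platelet fraction 344 to 870, and the 255 between treatments 473 with no filter and 204 to 437.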

Other observations

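Psmd3, a scaffold subunit of the 19S lid, varied widely among hippocampi of every group and was described after its values were seen. Its normalized counts were 274, 633, 1147, 1290 and 1539 in the saline mice, a coefficient of variation of 52.6%, against 41.5% after plasma and 31.7% after the platelet fraction. Across 17 hippocampi its level had a Pearson r over 0.9 with 148 of 13905 other genes, and at most 0.694 with 46 other members. The most alike was Fam174a (r = 0.989, Spearman rho = 0.880, and r = 0.981 without the 2 mice farthest from the median), and Pcsk1n, Tsen34 and Ccdc85b were among the next. These are descriptions over libraries that share their processing.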
